A study of Mus musculus with 18 samples.

Results

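The genes described here are 36 genes of macrophages and of innate inflammation, measured in the thyroids of mice with and without an intact Glis3 gene. They are 22 markers of resident macrophages (surface receptors, complement C1q, Fc receptors and their adaptors, lysosomal proteins, the integrin pair Itgam and Itgb2, and the lineage factor Spi1) and 14 genes that are induced when macrophages or the cells around them are activated (cytokines, pattern recognition receptors, adhesion molecules and acute phase proteins). They were listed by name, with no threshold on their values, and were read by 48 probes of the array. All 36 were among the 17932 genes that passed the filter on dim probes, so they make up 36 of 17932 tested genes.

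Thyroid RNA was taken at 1 month of age from C57BL/6 mice weaned at 3 weeks. Wild-type (WT) and Glis3KO2 mice, called KO2 below, were fed either the NIH31 normal diet (5 WT, 5 KO2) or the Harlan TD.95125 low-iodine diet for 6 days (4 WT, 4 KO2). GLIS3 is a zinc finger transcription factor of the thyroid follicular cell, and a diet poor in iodine raises thyroid-stimulating hormone and drives the gland to grow. Each RNA sample, amplified and labelled with 1 dye, was read on 1 Agilent mouse gene expression array. The deleted stretch of Glis3, the sex of the mice and any pooling of glands are not given in the sources used here.

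Macrophages live in the connective tissue and around the capillaries of the thyroid, as in other organs. They depend on the growth factor CSF1 and its receptor CSF1R, and on the transcription factor PU.1, which Spi1 encodes. Resident macrophages clear dying cells and debris with scavenger receptors, Fc receptors and complement C1q. When toll-like receptors or cytokines signal through NF-kB, they and the neighbouring fibroblasts, endothelium and epithelium make IL-6, IL-1 and TNF, raise adhesion molecules and secrete acute phase proteins.

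Levels are given as log2 of the background-corrected signal relative to the 75th percentile of the same array, so a level of 0 is the signal of a probe at that percentile, and a difference of 1 is a 2-fold difference. Levels of different genes come from different probes and are not compared with each other. The share of spots well above background lay between 60.1% and 90.6% over the 18 arrays, and no gene spot was saturated. The normal-diet arrays and the low-iodine arrays were read on different slides and by different scanner models, so the diet and the array set cannot be told apart. Both genotypes were present in equal number on each of the 5 slides. WT replicate 2 on low iodine stood apart, with a median signal of 191.5 against 85.5 on the next brightest array, and the results that rest on it are given with and without it. The 5 follicular cell markers used here (Tg, Tshr, Pax8, Nkx2-1, Foxe1) were well above background in the thyroids of all 4 groups, at a mean level between 2.52 and 3.97 on every array. The Glis3 probe did not separate the genotypes past the threshold on either diet. The KO2 minus WT difference was 0.45 ± 0.42 (SE) on normal diet (limma, adjusted p = 0.732) and -1.36 ± 0.47 on low iodine (adjusted p = 0.0619); whether this probe lies in the deleted stretch is not known, so the probe does not check the labels.

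Promoter windows are shown for 4 of the 5 genes that differed between genotypes on low iodine, as RefSeq gives them on GRCm38.p6, from 250 bases before the start site to 50 bases after it. The fifth gene is Itgb2. Capitals mark matches, on either strand, to 4 short motifs: GAGGAA, the core bound by PU.1; GGGANTTTC, most of an NF-kB site; TGANTCA, an AP-1 site; and TATAAA, the core element of many inducible promoters. The Il6 window is chr5:30012864-30013163 on the plus strand, Laptm5 is chr4:130913066-130913365 on the plus strand, Itgam is chr7:128062390-128062689 on the plus strand and Cd163 is chr6:124304401-124304700 on the plus strand.
Il6: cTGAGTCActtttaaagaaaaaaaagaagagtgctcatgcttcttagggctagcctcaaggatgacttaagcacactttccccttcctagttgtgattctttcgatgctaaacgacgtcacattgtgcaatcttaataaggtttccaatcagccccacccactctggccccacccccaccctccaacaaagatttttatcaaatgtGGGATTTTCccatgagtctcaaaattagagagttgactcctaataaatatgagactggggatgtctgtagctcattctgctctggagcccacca
Laptm5: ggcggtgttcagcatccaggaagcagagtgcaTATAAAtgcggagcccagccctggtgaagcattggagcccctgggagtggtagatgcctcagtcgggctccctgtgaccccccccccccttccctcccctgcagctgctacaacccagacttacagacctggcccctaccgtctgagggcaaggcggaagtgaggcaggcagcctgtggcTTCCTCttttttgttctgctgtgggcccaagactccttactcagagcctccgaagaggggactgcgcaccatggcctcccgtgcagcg
Itgam: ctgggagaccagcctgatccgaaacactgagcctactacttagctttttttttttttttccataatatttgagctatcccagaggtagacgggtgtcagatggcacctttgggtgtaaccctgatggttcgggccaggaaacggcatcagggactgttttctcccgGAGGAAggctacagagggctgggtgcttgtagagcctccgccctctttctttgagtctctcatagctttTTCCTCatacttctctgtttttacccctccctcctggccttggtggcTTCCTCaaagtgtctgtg
Cd163: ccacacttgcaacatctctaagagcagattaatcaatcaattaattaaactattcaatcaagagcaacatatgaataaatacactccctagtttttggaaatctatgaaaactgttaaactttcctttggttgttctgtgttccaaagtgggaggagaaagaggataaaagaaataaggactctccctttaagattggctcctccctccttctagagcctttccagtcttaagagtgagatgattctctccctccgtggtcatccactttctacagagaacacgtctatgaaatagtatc
Il6 holds an NF-kB match whose first base lies 44 bases before the start site and an AP-1 match 249 bases before it. Itgam, the integrin alpha chain of myeloid cells, holds 3 PU.1 cores, first bases at -84, -15 and 33 from the start site. Laptm5 has a PU.1 core at -38 and a TATA match at -218, and the Cd163 window has no match to any of the 4 motifs.

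Windows of 26 of the 36 genes were in the table. A PU.1 core was present in 15 of the 26, in 10 of 14 resident markers and 5 of 12 activation genes, against 28.3% of 27025 promoters of the same length. The NF-kB motif was found in 2 of the 26 (Il6 and Csf1) and in 1.1% of all promoters. An AP-1 match was present in 3 of the 26 (Cd68, Trem2 and Il6) against 7.9% of all, and TATAAA in 6 of the 26 against 14.2%. A match is only a run of letters in this window, not a measured binding site.

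On normal diet, none of the 36 genes differed between KO2 and WT thyroids past an adjusted p of 0.05 (limma, Benjamini-Hochberg over all genes tested). Over all 17932 genes, 1.39% passed, 0.513% as higher and 0.876% as lower in KO2. At an unadjusted p under 0.05 there were 4 of the 36, the lysosomal protein Laptm5, the cytoplasmic protein Aif1, the pore-forming protein Mpeg1 and Il6, but Il6 was well above background on 0 of 10 normal-diet arrays, so its difference there compares unresolved levels. The resident markers had a median difference of -0.29, with 15 of 22 below 0, and the activation genes a median of -0.08, with 9 of 14 below 0; the median of all genes was 0.05.

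Aif1, an actin-binding protein of macrophages and microglia, read 0.31, 1.83, 1.63, 1.49 and 0.88 in WT replicates 1 to 5 on normal diet. In KO2 replicates 1 to 5 it read -0.90, 0.39, -0.75, 1.64 and -0.95. KO2 replicates 1, 3 and 5 lay below every WT array and KO2 replicates 2 and 4 inside the WT range. The difference was -1.34 ± 0.45 (SE; limma, adjusted p = 0.177). Without KO2 replicate 4, the array with the lowest share of spots above background, it was -1.78 with an adjusted p of 0.0115, and Aif1 was then the 1 gene of the 36 that passed. Laptm5 differed by -0.83 ± 0.28 (adjusted p = 0.170) and Mpeg1 by -0.77 ± 0.28 (adjusted p = 0.217).

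Cd163, the receptor by which macrophages take up haptoglobin-bound haemoglobin, was the only member whose genotypes did not overlap on normal diet. Its WT levels were 0.09, 0.15, 0.42, 0.13 and 0.36, and its KO2 levels 0.42, 0.66, 0.68, 0.45 and 1.04. Every KO2 array was above every WT array, the closest pair being equal at 2 decimals. The difference of 0.42 ± 0.20 did not pass the test (limma, adjusted p = 0.381). Of all genes, 1.88% had every KO2 array above every WT array, and 1 of 36 is close to that share. The defining markers Adgre1 (F4/80), Csf1r, Cd68 and Spi1 did not pass on normal diet, with differences of -0.68, -0.12, -0.28 and -0.37; of the Spi1 levels, only 2 of the 5 in KO2 were resolved from background there.

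On low iodine, 5 of the 36 genes differed between the genotypes, where 15.0% of all genes did, so the share of called members (13.9%) was close to the background. Of the 36, 4 were lower and 1 was higher in KO2, against 7.18% and 7.81% of all genes. The cytokine Il6 passed the filter on dim probes only through low-iodine arrays, on which the WT group was high, so its call is no support for the list; without it, 4 of 35 were called (11.4%). With dim KO2 arrays set to the lowest signal that counted as above background, Il6 was 4.58-fold lower in KO2 than in WT. Laptm5 fell 2.40-fold, and the integrin beta chain Itgb2 and its partner Itgam, which together form the complement receptor CR3, fell 2.01-fold and 1.84-fold. Cd163 rose 1.62-fold.

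**Figure D1:**
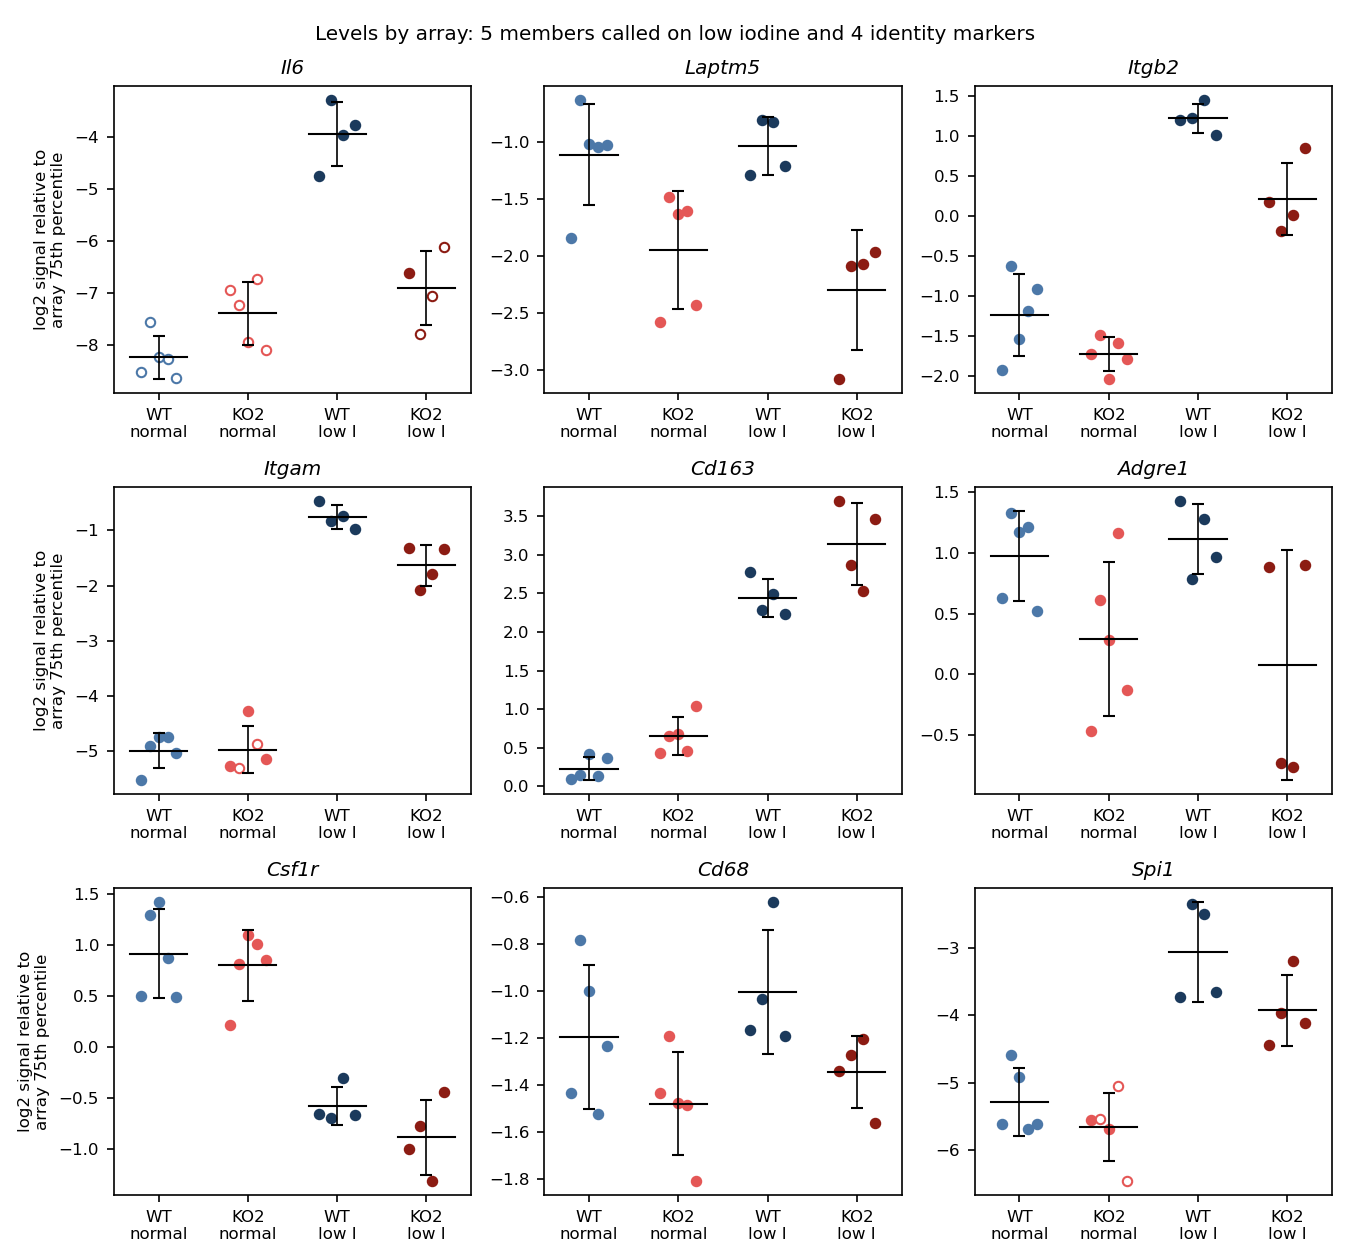
Levels of 9 genes on each of the 18 arrays, as log2 signal relative to the 75th percentile of the array (vertical axes differ in range), in WT and KO2 thyroids on normal and low-iodine diet (5, 5, 4 and 4 arrays). Filled points are well above background and open points are not; lines and bars are the group mean and SD. On low iodine, Il6, Laptm5, Itgb2 and Itgam are lower on every KO2 array than on every WT array, and Il6 is not above background on any normal-diet array.

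IL-6 is the cytokine that drives the acute phase response. On low iodine Il6 read -4.76, -3.30, -3.97 and -3.79 in WT replicates 1 to 4. In KO2 replicates 1 to 4 it read -6.62, -7.79, -7.07 and -6.12. All 4 KO2 arrays lay below all 4 WT arrays, and only KO2 replicate 1 was well above background, so the KO2 level is mostly not resolved from background. The dim KO2 arrays were set to a floor: the lowest signal that counted as above background on each array, or their own where higher. The KO2 mean was then 2.20 below the WT mean on the log2 scale (4.58-fold), and 1.98 below it without WT replicate 2. The floor is taken over all probes of an array, so these sizes are not firm lower bounds for Il6. The fit on the measured levels gave -2.95 ± 0.39 (SE; limma, adjusted p = 0.000117), a size that rests on unresolved KO2 levels. With normexp background correction it was -0.57 and did not pass (adjusted p = 0.109).

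Laptm5 is a lysosomal membrane protein of haematopoietic cells. Its WT levels on low iodine were -1.29, -0.81, -0.82 and -1.21, and its KO2 levels -3.08, -2.09, -2.07 and -1.96. The KO2 arrays all lay below the WT arrays, with KO2 replicate 1 lowest. The difference was -1.26 ± 0.31 (limma, adjusted p = 0.0111), the value within slides was -1.47 and -1.06, and its second probe gave -0.95. Without WT replicate 2 it was -1.19 (adjusted p = 0.0303), and Laptm5 was past the threshold under all 28 alternatives.

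Itgb2, the shared beta chain of the leukocyte integrins, read 1.19, 1.22, 1.45 and 1.01 in WT. The KO2 levels were 0.18, -0.19, 0.02 and 0.85. No KO2 array reached the lowest WT array, though KO2 replicate 4 came close. Itgb2 differed by -1.004 ± 0.26 (limma, adjusted p = 0.0150), by -0.69 and -1.32 within the low-iodine slides, and by -1.005 without WT replicate 2 (adjusted p = 0.0307). The call was lost with median scaling (-0.85, adjusted p = 0.0786).

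Itgam encodes the alpha chain known as CD11b. Its WT levels on low iodine were -0.47, -0.84, -0.74 and -0.98, against -1.31, -2.08, -1.79 and -1.34 in KO2. The groups again did not overlap. Itgam differed by -0.88 ± 0.25 (limma, adjusted p = 0.0236), by -0.67 and -1.08 within slides, by -0.90 without WT replicate 2 (adjusted p = 0.0392), and by -0.72 on its second probe. The call was lost under 6 of 28 alternatives: median scaling (-0.73, adjusted p = 0.144), the mean of its probes (-0.80, adjusted p = 0.142), and when WT replicate 1 or 3 or KO2 replicate 2 or 3 was left out (-0.87 to -0.73, adjusted p from 0.0524 to 0.0714). The adhesion molecules of endothelium that leukocyte integrins bind, Icam1 and Vcam1, differed by -0.57 ± 0.41 and -0.35 ± 0.34 and did not pass.

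Cd163 was the 1 member that rose. Its low-iodine WT levels were 2.77, 2.28, 2.49 and 2.24, and its KO2 levels 3.70, 2.87, 2.54 and 3.47. KO2 replicates 1, 2 and 4 lay above every WT array, while replicate 3 lay among them. The difference was 0.70 ± 0.22 (limma, adjusted p = 0.0443), and 1.06 and 0.34 within slides. This call was the least stable of the 5: it was lost under 15 of 28 alternatives, among them without WT replicate 2 (0.65, adjusted p = 0.0988). The other scavenger and surface receptors did not pass: the mannose receptor Mrc1 at -0.75 ± 0.37, the hyaluronan receptor Lyve1 at -0.74 ± 0.31 and the lipopolysaccharide co-receptor Cd14 at 0.50 ± 0.28.

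**Figure D2:**
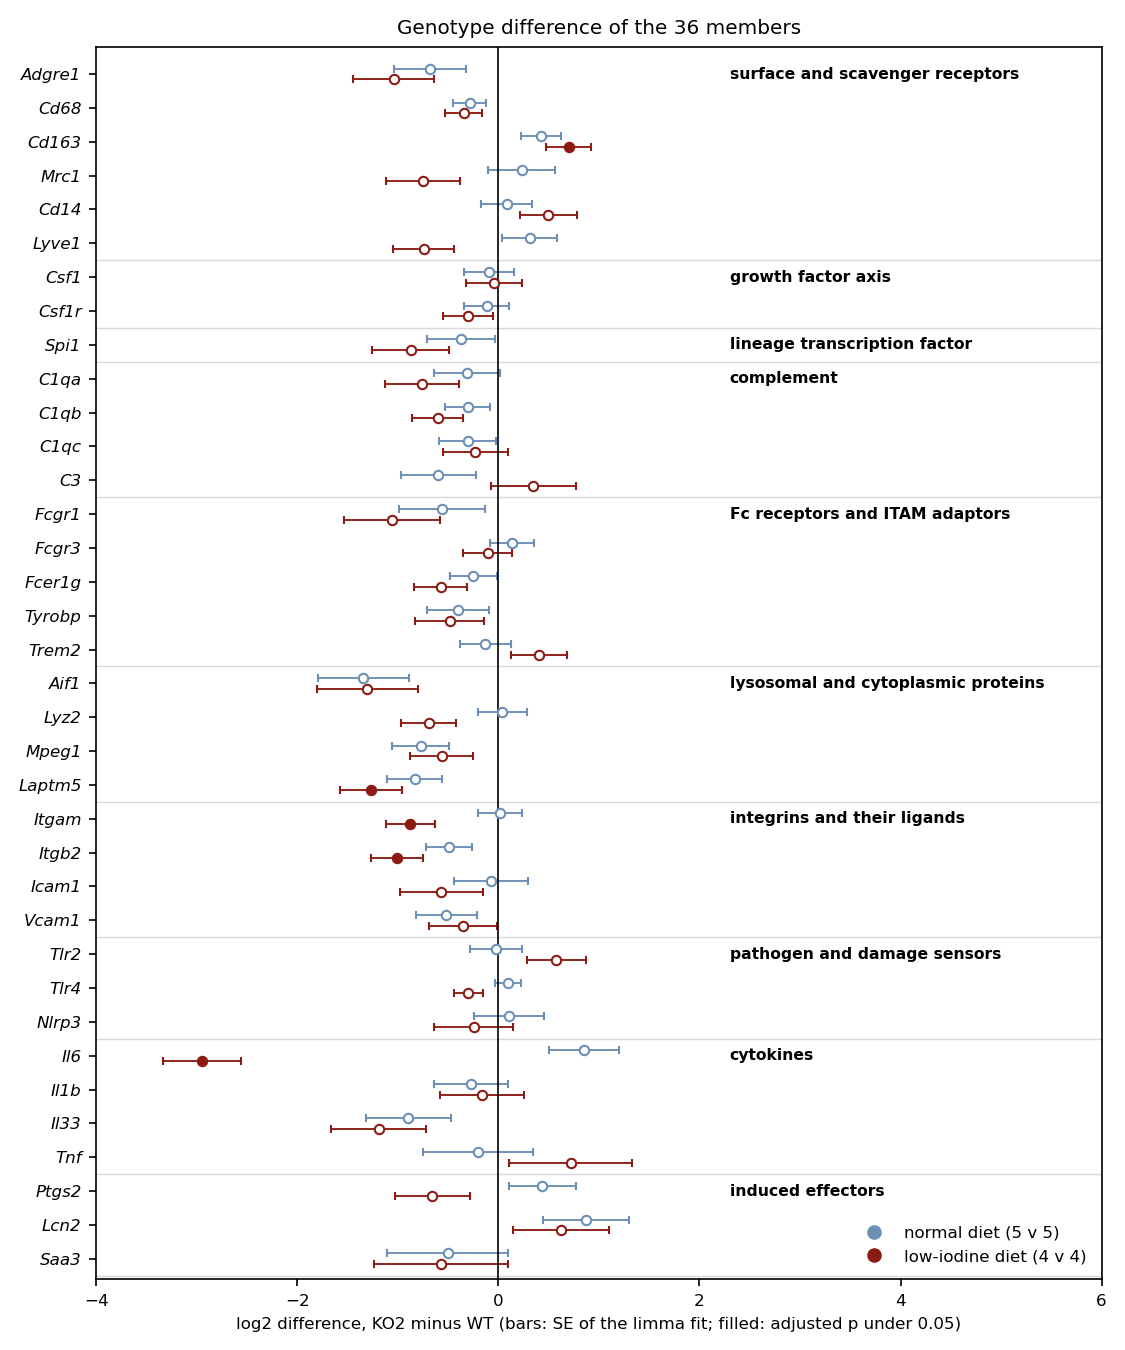
Difference between KO2 and WT (log2, horizontal axis) for each of the 36 genes, grouped by role, on normal diet (blue) and low-iodine diet (red); bars are the SE of the limma fit and filled points have an adjusted p under 0.05. No normal-diet point is filled, and on low iodine the filled points are Il6, Laptm5, Itgb2 and Itgam on the left and Cd163 on the right.

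The defining markers of macrophages were measured well above background on all low-iodine arrays, and none passed the test. Adgre1, which encodes the adhesion receptor F4/80, read 1.43, 0.79, 1.28 and 0.97 in WT and 0.89, -0.73, -0.76 and 0.90 in KO2. KO2 replicates 2 and 3, both on 1 slide, were low, and KO2 replicates 1 and 4, on the other slide, lay within the WT range. The difference was -1.04 ± 0.40 (limma, adjusted p = 0.0971, unadjusted 95% interval -1.89 to -0.19), and it was -0.21 within the slide of the high pair and -1.87 within that of the low pair. Csf1r, the receptor for CSF1, read -0.66, -0.70, -0.30 and -0.66 in WT and -1.005, -0.78, -1.32 and -0.44 in KO2. The groups overlapped, with a difference of -0.30 ± 0.25 (adjusted p = 0.492). Its ligand gene Csf1 differed by -0.04 ± 0.28.

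Cd68, a lysosomal glycoprotein of macrophages, read -1.17, -1.03, -0.62 and -1.19 in WT and -1.34, -1.27, -1.21 and -1.56 in KO2. Every KO2 array was below every WT array by a small margin, and the difference of -0.34 ± 0.19 did not pass (limma, adjusted p = 0.250). Spi1 read -3.73, -2.34, -2.49 and -3.65 in WT and -4.44, -3.96, -3.18 and -4.11 in KO2. Its groups overlapped through KO2 replicate 3, and the difference was -0.87 ± 0.38 (adjusted p = 0.143). In bulk thyroid RNA, a different number of macrophages or other leukocytes and a different amount of RNA per cell cannot be told apart.

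Among the complement genes, the C1q subunits, which start the classical pathway, differed by -0.76 ± 0.36 (C1qa), -0.60 ± 0.25 (C1qb) and -0.23 ± 0.32 (C1qc) on low iodine, and C3, the central component of all complement pathways, by 0.35 ± 0.42. Of these 4 genes none passed. The Fc receptor chain and ITAM adaptor genes also gave no call: the high-affinity IgG receptor Fcgr1 differed by -1.06 ± 0.48, the common gamma chain Fcer1g by -0.57 ± 0.26, the adaptor Tyrobp by -0.49 ± 0.34, its partner receptor Trem2 by 0.41 ± 0.28 and the low-affinity receptor Fcgr3 by -0.10 ± 0.24. Of the lysosomal and cytoplasmic proteins, Aif1 differed by -1.30 ± 0.50 (limma, adjusted p = 0.0959), lysozyme Lyz2 by -0.69 ± 0.27 and Mpeg1 by -0.56 ± 0.31.

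The sensors and induced genes were mixed in sign. On low iodine, Tlr2, the receptor for bacterial lipoproteins, differed by 0.58 ± 0.29, Tlr4, the lipopolysaccharide receptor, by -0.30 ± 0.14, and the inflammasome sensor Nlrp3 by -0.24 ± 0.39. The alarmin Il33 differed by -1.19 ± 0.47, the inflammasome product Il1b by -0.16 ± 0.42, the prostaglandin synthase Ptgs2 by -0.66 ± 0.37, the iron-binding lipocalin Lcn2 by 0.62 ± 0.48 and serum amyloid Saa3 by -0.57 ± 0.67. None of these 8 passed, and with the remaining activation genes only Il6 of 14 was called.

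Tnf, the macrophage cytokine, depended on 1 array. Its low-iodine WT levels were -6.86, -3.49, -7.01 and -6.79, of which only that of replicate 2 was well above background, and its KO2 levels were -5.46, -4.87, -5.69 and -5.26, all well above background. Apart from WT replicate 2, all KO2 arrays lay above the WT arrays. The difference was 0.72 ± 0.62 (limma, adjusted p = 0.519) over all arrays. Without WT replicate 2, none of the 3 remaining WT arrays was above background. With those 3 at the floor and WT replicate 2 left out, KO2 was 2.17-fold higher, which is not a firm lower bound. The test on the measured levels (limma, adjusted p = 0.0131) rests on unresolved WT levels. With normexp background correction over all arrays, the Tnf difference was -0.17 (limma, adjusted p = 0.687). Saa3, whose level on that array was -2.14 against -4.89 to -5.16 on the other WT arrays, went from -0.57 to 0.14 without it.

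Taken by list, the resident markers had a median difference of -0.65 on low iodine, with 19 of 22 below 0, 3 called lower and 1 called higher. Without Lyve1 the resident median was -0.60, with 18 of 21 below 0. The activation genes had a median of -0.27, with 10 of 14 below 0 and 1 called lower; the median of all genes was -0.02. For 9 of the 36 genes every KO2 array was below every WT array (Il6, Laptm5, Itgb2, Itgam, Aif1, C1qb, Fcer1g, Cd68 and Mpeg1), 8 of them resident markers, where 9.10% of all genes had this pattern. Il6, also the 1 activation gene called lower, passed the filter only through low-iodine arrays, on which WT was high. Its call and its place in this count are no support for the list. For 0 of the 36 was every KO2 array above every WT array, against 10.6% of all genes. The genes were chosen with earlier results of these arrays known, so these counts are a description. Across scalings and background corrections, the resident median lay between -0.91 and -0.47 and the activation median between -0.53 and -0.12.

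The mean level of the 22 resident markers was 0.16, 0.19, 0.22 and -0.17 on the low-iodine WT arrays and -0.29, -0.63, -0.77 and -0.09 on the KO2 arrays. The groups overlapped by KO2 replicate 4, which lay above WT replicate 4. On normal diet the mean ran from -0.61 to 0.20 in WT and from -0.92 to -0.10 in KO2. The activation genes ran from -2.28 to -1.31 in WT and -2.51 to -1.99 in KO2 on low iodine, and from -3.08 to -1.88 and -2.92 to -2.37 on normal diet. Both lists overlapped between genotypes on both diets.

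**Figure D3:**
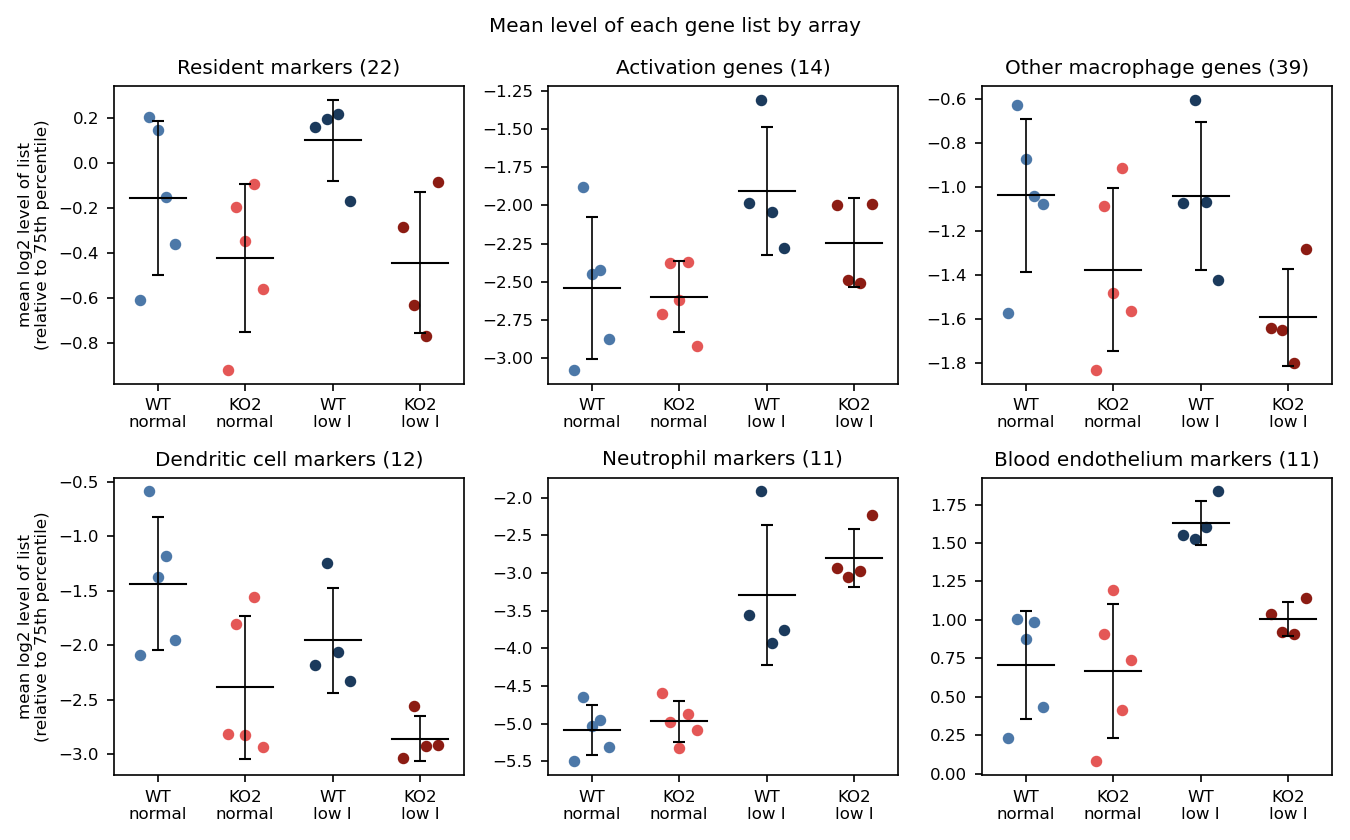
Mean log2 level of 6 gene lists on each array (vertical axis, relative to the 75th percentile of the array), by group; lines and bars are the mean and SD over arrays. The resident markers are lower on most KO2 arrays on low iodine but overlap between genotypes, while blood endothelium markers and dendritic cell markers are lower on every low-iodine KO2 array than on every low-iodine WT array.

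Within slides, the differences of the resident markers had medians of -0.32 and -0.74 on the low-iodine slides, each with 18 of 22 below 0. On normal diet the medians were -0.51 and -0.40 on slides with 2 arrays per genotype, and 0.43 on the slide with 1 array per genotype, where 20 of 22 were above 0. The activation genes followed with medians of -0.24 and -0.12 on low iodine and -0.42, -0.17 and 0.84 on normal diet. On that single normal-diet slide the sign was thus turned for both lists, in a comparison of WT replicate 1 with KO2 replicate 2 alone.

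**Figure D4:**
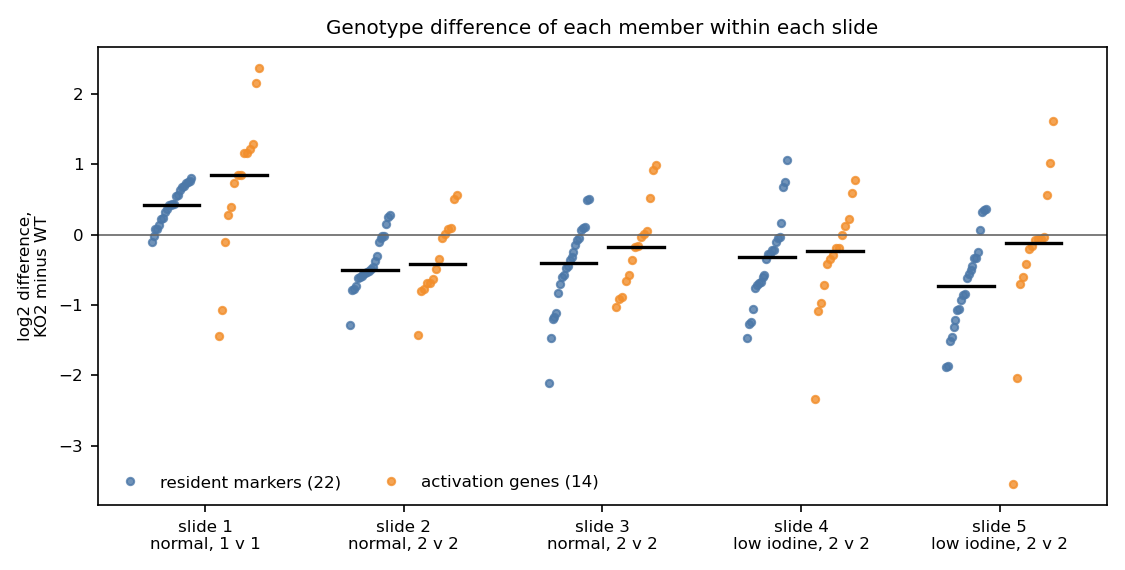
Difference between KO2 and WT within each of the 5 slides (log2, vertical axis) for the 22 resident markers (blue) and the 14 activation genes (orange); each point is a gene and black bars are medians. Resident medians are 0.43, -0.51 and -0.40 on the normal-diet slides and -0.32 and -0.74 on the low-iodine slides.

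Further genes of the same cells and pathways were counted from fixed lists. Of 39 other macrophage genes, 4 fell and 1 rose in KO2 on low iodine (12.8%, near the 15.0% of all genes), with a median of -0.45. Lst1, a transmembrane protein of leukocytes, was 4.76-fold lower with its dim KO2 arrays at the floor (well above background on 2 of 4 KO2 arrays). Cybb, the NADPH oxidase subunit, fell by 1.36 and the Src family kinase Lyn by 0.71, while the myeloid transcription factor Irf8 rose by 0.61 (log2; limma, adjusted p from 0.0120 to 0.0185). Of 38 innate signalling genes, 6 fell and 4 rose (26.3%), with a median of -0.17. With dim KO2 arrays at the floor, the interleukin-1 receptor antagonist Il1rn was 8.95-fold lower and the toll-like receptor homologue Cd180 7.63-fold. For each gene, only 1 of the 4 KO2 levels was resolved from background, and these sizes are not firm lower bounds. The NF-kB inhibitors Nfkbia and Tnfaip3, which NF-kB itself induces, rose by 1.76 and 1.64 (adjusted p = 0.000547 and 0.00266).

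Of 17 further complement genes, 3 fell and none rose past the threshold on low iodine (17.6%, near the share of all genes). The anaphylatoxin receptor C3ar1 fell by 1.33, properdin Cfp by 0.97 and factor B, Cfb, by 1.33 (log2, limma, adjusted p from 0.0169 to 0.0370). Of 15 acute phase genes 2 rose and 2 fell (26.7%): hepcidin Hamp rose by 2.80 and haptoglobin Hp by 1.48, and the pentraxin Ptx3 fell by 2.23 and Orm1 by 1.65. On normal diet, no other macrophage gene and no innate signalling gene passed, with medians of -0.40 and 0.03. The complement component C4b rose by 1.45 in KO2 on normal diet (adjusted p = 0.00337) and the copper carrier Cp fell by 0.99 (adjusted p = 0.0317).

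Markers of other cells moved between the genotypes in the same samples. Of all genes, 7.18% were called lower and 7.81% higher on low iodine. On low iodine, 12 of 12 dendritic cell markers were below 0 in KO2, with a median of -0.97, and 2 fell past the threshold, the integrin Itgax by 2.21 and the class II gene H2-Ab1 by 1.56. The summed linear level of the dendritic list was 16.4 to 21.5 on the WT arrays and 5.84 to 10.2 on the KO2 arrays, and 2 of its 12 genes were not above background on any KO2 array. Of 11 blood endothelium markers 5 fell and none rose past the threshold. Their sums were 46.7 to 56.4 in WT and 29.1 to 36.9 in KO2. Of 6 lymphatic endothelium markers, 2 fell and 1 rose past the threshold, with sums of 3.06 to 3.32 in WT and 1.67 to 2.47 in KO2. The part of lymphatic endothelium in the Lyve1 difference was not tested. Fibroblast markers summed to 69.0 to 96.9 in WT and 18.9 to 33.8 in KO2, where 6 of 11 fell and 1 rose. Genes of mitosis moved furthest in the same direction: 11 of 11 fell on low iodine, with a median of -4.53 and sums of 25.9 to 34.8 in WT and 1.29 to 1.87 in KO2.

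On normal diet, where 0.876% of all genes fell past the threshold, 10 of 11 mitosis genes did (median -2.85). Their sums were 2.61 to 16.5 in WT and 0.968 to 2.64 in KO2. Fibroblast markers fell in 4 of 11 (median -1.27), with sums of 117.4 to 182.9 in WT and 89.9 to 127.6 in KO2, and thymic epithelium markers in 3 of 6 (median -3.86), with sums of 1.29 to 41.9 and 0.736 to 4.89. None of 12 dendritic cell markers passed there, with a median of -1.24 and sums of 23.6 to 85.2 in WT and 10.8 to 43.9 in KO2. These stand beside the resident median of -0.29 on that diet.

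Of 11 neutrophil markers, 3 rose past the threshold on low iodine, where 7.81% of all genes did. The list median was -0.15, with 7 below 0. S100a9 rose by 2.63 and Retnlg by 2.19 in KO2. S100a8 was 5.78-fold higher with its dim WT arrays at the floor (well above background on 2 of 4 WT arrays). No gene of this list fell past the threshold, and the sums were 1.27 to 4.69 in WT and 3.43 to 6.37 in KO2. T cell markers gave no call in either direction among 11. For the resident markers themselves the sums were 35.1 to 44.1 in WT and 22.8 to 44.4 in KO2. Skeletal muscle markers varied widely within groups, with sums of 2.43 to 125.1 in WT and 1.30 to 71.3 in KO2 on low iodine. On normal diet their sums were 2.105 to 283.2 and 0.759 to 739.2. Parathyroid markers varied widely within KO2, from 2.5 to 94.9 on low iodine and 3.12 to 467.6 on normal diet. Their WT sums were 50.3 to 68.1 and 310.2 to 430.3. The part of other cell types or neighbouring tissue in the differences of the 36 genes was not tested.

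The difference between the genotype effects on the 2 diets (the interaction) was called for 1 of the 36 genes, Il6, in the lower direction, where 1.22% of all genes were called: 0.864% lower and 0.357% higher. The fitted value was -3.79 ± 0.52 (SE; limma, adjusted p = 0.00294), which is no measured size. On normal diet Il6 read -8.52 to -7.56 in WT and -8.10 to -6.73 in KO2, with 0 of 10 arrays well above background. On low iodine 1 of 4 KO2 arrays was. The interaction therefore sets unresolved levels in 3 of 4 groups against the WT group on low iodine, through which the gene passed the filter, and with normexp correction it was -0.72 and did not pass (adjusted p = 0.299). Laptm5, Itgb2, Itgam and Cd163 had interaction values of -0.43 ± 0.41, -0.52 ± 0.35, -0.89 ± 0.33 and 0.28 ± 0.30, none past the threshold. Their unadjusted 95% intervals ran from -1.31 to 0.44, -1.25 to 0.22, -1.59 to -0.19 and -0.36 to 0.91, so for them the size of the difference between the diets is not settled. Beyond the 36 genes, C4b (-1.45) passed the interaction test (adjusted p = 0.0263).

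Between the diets, many genes differed in both genotypes, and the diet cannot be told apart from the array set. In WT, 13 of the 36 genes were higher and 7 lower on low iodine, which is 55.6% against 75.9% of all genes (39.4% higher and 36.5% lower). In KO2, 11 were higher and 9 lower, again 55.6%, against 74.4% of all genes (37.5% higher and 36.9% lower). The higher counts include Il6 and Ptgs2 in WT and Ptgs2 in KO2. These genes passed the filter only through low-iodine arrays, so their calls are no support for the list. The diet comparisons share arrays with the genotype comparisons above.

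Il6 and Ptgs2 were not above background on any normal-diet array and were well above it on all 4 low-iodine WT arrays. They passed the filter only through low-iodine arrays and so had to differ, and no p is given. In WT, with the normal-diet arrays at the floor, Il6 was 8.76-fold and Ptgs2 14.3-fold higher on low iodine. The floor was again the dimmest signal that still counted as above background on each normal-diet array, or the probe's own signal where higher. The measured Ptgs2 levels in WT were -8.56, -7.68, -8.30, -8.32 and -7.86 on normal diet and -3.26, -2.27, -3.70 and -3.76 on low iodine, so the groups lay far apart. In KO2, Ptgs2 was 6.59-fold higher with the normal-diet arrays at the floor, and Il6 was well above background on 1 of 4 low-iodine KO2 arrays. Tlr4 was higher on low iodine by 2.06 ± 0.14 in WT and 1.66 ± 0.14 in KO2, Cd163 by 2.22 ± 0.21 and 2.50 ± 0.21 and Spi1 by 2.23 ± 0.36 and 1.73 ± 0.36 (with 2 of 5 normal-diet KO2 arrays well above background), and Tlr2 was lower, at -2.96 ± 0.28 and -2.35 ± 0.28.

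Probes of 1 gene or of 1 protein complex often disagreed between the diets. The C1q subunits are made together in macrophages and assemble into 1 protein. Against normal diet, C1qa on low iodine was at -4.44 ± 0.35 and C1qb at -1.69 ± 0.24 in WT, while C1qc differed by -0.32 ± 0.30 and did not pass. In KO2 the values were -4.89, -1.99 and -0.25. Of the Itgam probes, 1 differed by 4.23 and the other by -0.17 in WT. The 3 Csf1r probes differed by -1.50, -1.57 and 4.07, and the C3 probes by -3.04 and 2.10. Between genotypes on low iodine, the pairs of probes for Adgre1 (-1.04 and -1.26), Aif1 (-1.30 and -1.67), Laptm5 (-1.26 and -0.95), Lyve1 (-0.74 and -1.20) and Itgam (-0.88 and -0.72) had the same sign, as did those of Mpeg1, Ptgs2 and Trem2. Of the 4 low-iodine KO2 arrays, the second probe was well above background on 1 for Adgre1, 0 for Ptgs2 and 2 for Mpeg1. The shared sign of these 3 pairs thus rests partly on unresolved levels. The probes of Csf1r (-0.30, 0.13 and 0.25), C3 (0.35 and -0.28) and Vcam1 (-0.35 and 0.08) differed in sign there too.

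**Figure D5:**
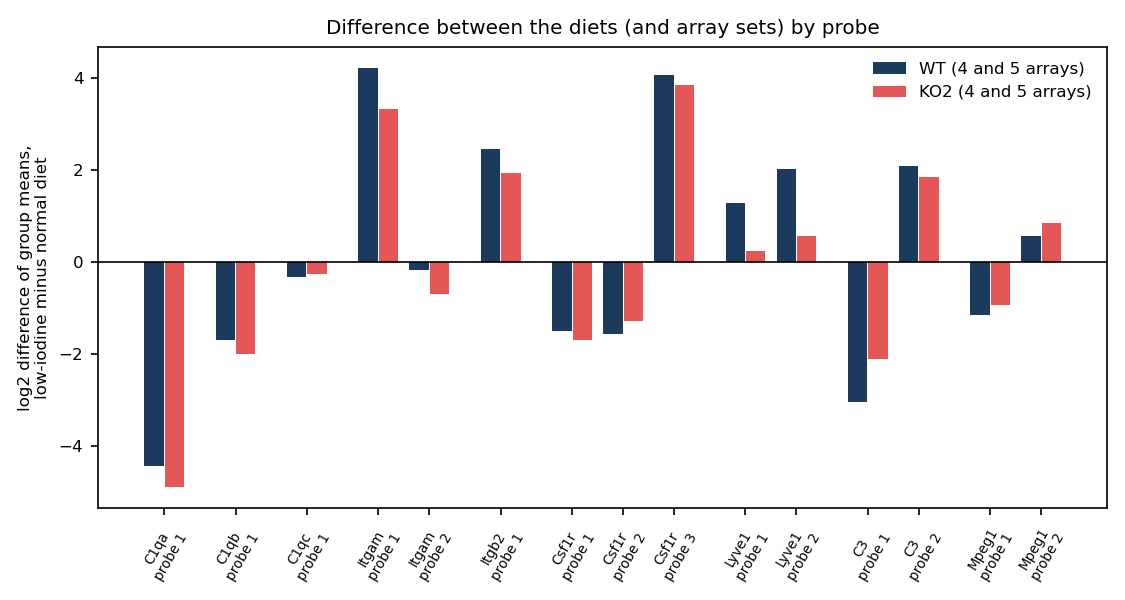
Difference of the group means between low-iodine and normal diet (log2, vertical axis, bars from 0) for each probe of 9 genes, in WT (dark) and KO2 (red). The C1q subunits run from -4.44 (C1qa) to -0.32 (C1qc) in WT, and the probes of Itgam, Csf1r and C3 differ in size or in sign within a gene.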

How the data were processed

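Thyroid RNA of 18 mice was read on 1-colour Agilent arrays. The authors deposited the scanner output of each array, with processed signal intensity per spot that Agilent Feature Extraction had background-corrected, per the file headers; the submitters' processing notes name its release 12. The deposited summary table of processed signal intensity held the same signals, not in log2. Its values over the scanner signal had a ratio of 1 on every array, so it is unscaled.

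Control spots and flagged spots were dropped, spots of 1 probe averaged, and log2 signal taken minus the 75th percentile of the array. Of 41174 probes, 28223 matched 1 gene through RefSeq accessions and 12951 were unmatched. A probe was kept if 4 or more of the 18 arrays had it well above background, and a gene was read from its brightest probe. Il6 and Ptgs2 passed this filter only through low-iodine arrays. A group-means model over all 18 arrays (limma 3.58.1, R 4.3.3) gave moderated tests with Benjamini-Hochberg adjustment over 17932 genes, at 0.05. It was tested on simulated data. The number of arrays limits the precision, and p-values measure the spread between samples of a group, which the series text counts as mice. Slides served as a block in an alternative. The files hold no mean signal, so normexp with an offset of 50 used the median spot signal. Other alternatives were quantile, median and no scaling, stricter and no filters, all probes of a gene, the compared arrays alone, the replicate number as a block, and each array left out in turn.

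The 36 genes and the other lists were chosen with earlier results of these data known. Every one of the 36 is named; values on each array are given for those past the threshold and for Adgre1, Csf1r, Cd68 and Spi1, and up to 4 genes with the smallest p among those past the threshold are named from each further list. Array values of Aif1, Tnf and Ptgs2, and Itgax, H2-Ab1, S100a8, S100a9 and Retnlg, were added after their values were seen. The NF-kB motif was shortened by 1 base after its first counts were seen. The same-numbered WT and KO2 samples had correlations of their deviations from the group means between -0.038 and 0.322. The numbers were not used as pairs in the main fit, and these correlations cannot exclude a pairing.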

Additional observations from a re-analysis of the deposited data

Results flagged for a closer look

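The highest or lowest array of a group lay far from the others (by Dixon's criterion at 95%) in 6 of the 144 gene-by-group sets of the 36 genes, or 4.2%, and chance alone flags about 1 in 20. Tnf was at -3.49 on low-iodine WT replicate 2, with the next array at -6.79, and at -6.31 on normal-diet KO2 replicate 5, with the next at -4.83. Saa3 was at -2.14 on low-iodine WT replicate 2, with the next at -4.89. Laptm5 was at -3.08 on low-iodine KO2 replicate 1, with the next at -2.09. Csf1r was at -0.30 on low-iodine WT replicate 3, with the next at -0.66, and Lcn2 at -7.20 on normal-diet WT replicate 1, with the next at -5.54.

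The genotype effect on Il6 differed between the diets by the interaction test, at -3.79 (limma, adjusted p = 0.00294), with no normal-diet array and 1 of 4 low-iodine KO2 arrays above background. The gene passed the filter only through low-iodine arrays, so the test sets unresolved levels against the group in which it was high and is no support for a difference between the diets.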

How the results depend on the processing

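Over up to 28 alternatives for each genotype comparison, no difference past the threshold changed sign. Of 2982 recomputed differences of the 36 genes between genotypes or in the interaction, 107 changed sign, none of them past the threshold before or after. On normal diet, members called lower ran from 0 to 1 when 1 array was left out (Aif1, without KO2 replicate 4). On low iodine, members called lower were 9 with quantile normalization, 2 with median scaling and 9 with no scaling, and from 3 to 6 with 1 array left out. Members called higher were 2 with quantile normalization, 0 with median scaling, no scaling or the compared arrays alone, and from 0 to 1 with 1 array left out. Itgb2 was lost under 1 of 28 alternatives, Itgam under 6 and Cd163 under 15. Without low-iodine WT replicate 2, the 1 member called higher was Tnf in place of Cd163, a call that rests on unresolved WT levels. The interaction call of Il6 was lost (0 members) with normexp and with the filter at 9 arrays, which removes Il6.

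Between the diets in WT, median scaling gave 7 members higher and 16 lower, with medians of -0.74 (resident) and -0.61 (activation), and the mean of all probes gave 4 lower. In KO2, quantile normalization gave 15 lower and an activation median of -0.70; median scaling gave 18 lower and medians of -0.85 and -0.33; no scaling gave medians of -0.49 and 0.0382; and the 9-array filter gave an activation median of 0.0943. Median scaling moved the median of all genes to -0.91 in WT and -0.80 in KO2 between the diets, and to 0.13 between genotypes on low iodine, where no scaling moved it to -0.29. The cause was not tested for these.

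Over all genes, the normal-diet calls (249) were 3 with the compared arrays alone and 123 to 675 with 1 array left out, the low-iodine calls (2687) were 1642 with median scaling and 1673 with the compared arrays alone, and the interaction calls (219) were 712 with quantile normalization, 90 with median scaling and 131 with no scaling. Whether the replicate numbers pair samples is not known. With the replicate block, members called lower on low iodine were 6 and higher 1, and all genes called on normal diet were 160. Own-numbered partners correlated best for 4 of 9 numbers. Dim genes limit the reading: Il6 and Ptgs2 were not above background on any normal-diet array, Tnf was above it on 1 of 4 low-iodine WT arrays, Spi1 on 2 of 5 and Itgam on 3 of 5 normal-diet KO2 arrays.

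The log2 values that changed sign, none past the threshold, were as follows, with the range where 1 array was left out. No scaling turned the normal-diet difference to -0.0715 for Cd14, -0.0155 for Fcgr3, -0.14 for Itgam, -0.11 for Lyz2, -0.0469 for Nlrp3 and -0.0541 for Tlr4. The mean of all probes turned the normal-diet difference to 0.0628 for Csf1r and -0.0957 for Itgam. Normexp turned the normal-diet difference to 9e-04 for Il1b, 0.0938 for Spi1 and 0.0577 for Tnf. Quantile normalization turned the normal-diet difference to -0.0517 for Itgam. Median scaling turned the normal-diet difference to -0.0093 for Itgam. With 1 array left out, the log2 difference between genotypes on normal diet ran from -0.0517 to 0.23 for Cd14, -0.25 to 0.0574 for Csf1, -0.22 to 0.0289 for Csf1r, -0.42 to 0.20 for Icam1, -0.49 to 0.0163 for Il1b, -0.16 to 0.0991 for Itgam, -0.0886 to 0.17 for Lyz2, -0.069 to 0.40 for Nlrp3, -0.14 to 0.19 for Tlr2, -0.38 to 0.12 for Tnf and -0.28 to 0.0059 for Trem2. Median scaling turned the low-iodine difference to 0.11 for Csf1 and 0.045 for Fcgr3. The mean of all probes turned the low-iodine difference to 0.0246 for Csf1r. Quantile normalization turned the low-iodine difference to 0.13 for Nlrp3. Normexp turned the low-iodine difference to -0.17 for Tnf. With 1 array left out, the log2 difference between genotypes on low iodine ran from -0.41 to 0.0342 for C1qc, -0.16 to 0.11 for Csf1, -0.27 to 0.0354 for Fcgr3, -0.32 to 0.11 for Il1b and -0.86 to 0.14 for Saa3. Quantile normalization turned the interaction to -0.25 for Aif1, -0.0271 for C1qc, -0.0123 for Csf1, 0.38 for Lcn2 and 0.0751 for Nlrp3. No scaling turned the interaction to -0.0707 for Aif1, -0.0316 for C1qc and -0.06 for Csf1. The mean of all probes turned the interaction to -0.12 for Aif1. Median scaling turned the interaction to 0.12 for Cd68, 0.11 for Saa3 and 0.0928 for Tyrobp. Normexp turned the interaction to -0.22 for Il1b and -0.23 for Tnf. With 1 array left out, the interaction ran from -0.21 to 0.48 for Aif1, -0.14 to 0.34 for C1qc, -0.16 to 0.0689 for Cd68, -0.10 to 0.21 for Csf1, -0.18 to 0.38 for Il1b, -0.65 to 0.0457 for Il33, -0.48 to 0.20 for Lcn2, -0.47 to 0.65 for Saa3, -0.27 to 0.13 for Tyrobp and -0.11 to 0.36 for Vcam1. The cause was not tested.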
